A study of Mus musculus with 9 samples.

Results

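The integrated stress response genes described here were Atf4 and 9 genes known as its targets or partners: Ddit3, Trib3, Chac1, Asns, Psat1, Phgdh, Slc7a11, Ddit4 and Ppp1r15a. They were taken from a list of 10 gene symbols and matched to the 57010 genes of a count table of bulk RNA sequencing. All 10 were found, and 9 of them were tested, as part of the 13680 genes that passed a filter of over 10 reads per embryo. Chac1 had 10 reads in its lowest embryo and stayed outside that test.

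The RNA came from microdissected cerebral cortex of single mouse embryos at E12.5, with 3 control (Ctrl) embryos labelled WT, 3 Cnot3 cKO embryos and 3 Cnot3;Trp53 dcKO embryos. In cKO, floxed Cnot3 was deleted by Emx1-Cre, which acts in radial glial cells of the cortex and in the cells they produce. In dcKO, floxed Trp53 was deleted together with Cnot3. Blood, vessel and meningeal cells of the dissected tissue are outside the Cre lineage, and whether Ctrl embryos carried floxed alleles or Cre is not given in the sources used here. Cnot3 is a subunit of the CCR4-NOT complex, which shortens the poly(A) tails of mRNAs, and Trp53 encodes p53.

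In the integrated stress response, kinases that sense amino acid shortage, misfolded protein, double-stranded RNA or heme shortage phosphorylate the translation factor eIF2. General translation then falls, while Atf4 mRNA is translated more efficiently, so that the Atf4 mRNA level alone does not report the amount of Atf4 protein. Atf4 protein binds C/EBP-Atf response elements in genes for amino acid uptake and synthesis, redox balance and cell death.

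The promoter sequences are shown because they carry the letters of such an element, which was searched as TGATGNAA and its reverse complement TTNCATCA, 1 pattern read on both strands. Promoters of all 10 genes were found in RefSeq (GRCm38.p6), each 250 bases before to 50 bases after a transcription start. Of the 10 genes, 4 held the pattern, against 3.97% of all 32851 promoter windows. The stretches are at chr2:119351038-119351067 (Chac1, plus strand), chr2:152344028-152344057 (Trib3, minus strand), chr3:50443642-50443690 (Slc7a11, minus strand) and chr6:7693214-7693243 (Asns, minus strand). Each is written 5′ to 3′ on the strand of the gene, with the matched letters in capitals.
Chac1: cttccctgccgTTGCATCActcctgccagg
Trib3: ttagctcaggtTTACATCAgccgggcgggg
Slc7a11: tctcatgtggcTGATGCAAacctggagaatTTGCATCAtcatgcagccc
Asns: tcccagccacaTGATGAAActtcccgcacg
The match starts at position -193 in Chac1, 15 in Trib3, -66 and -47 in Slc7a11 and -23 in Asns, counted from the transcription start. Slc7a11 was the gene with 2 matches, 1 in each direction. A match is a description of letters and not evidence of binding.

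The embryos had 21193798 to 45073349 reads counted in genes. Cnot3 fell from 107.5 ± 9.54 CPM (read counts scaled to a common library size; SD, n = 3) in Ctrl to 15.6 ± 1.46 in cKO, and to 7.33, 48.2 and 19.0 in the 3 dcKO embryos. Trp53 was at 214.8 to 253.8 CPM in Ctrl, 164.3 to 167.2 in cKO and 15.1, 110.4 and 20.6 in dcKO, so that dcKO replicate 2 kept the most RNA of both targeted genes. The 10 radial glia markers summed to 2461 to 3476 CPM in Ctrl, 2771 to 3171 in cKO and 3016 to 3534 in dcKO, so that markers of the labelled tissue were present in every group. In bulk tissue, fewer cells of a type and less RNA per cell cannot be told apart.

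Atf4 (chr15:80255184-80257541, GRCm38), the transcription factor of the response, was at 142.7, 130.5 and 138.7 CPM in the 3 Ctrl embryos, at 81.6, 84.7 and 80.3 in cKO, and at 65.3, 144.8 and 86.0 in dcKO. Every cKO embryo was below every control, whereas dcKO replicate 2 lay above the control range and the other two dcKO embryos below it. The fitted log2 fold changes of Atf4 were -0.74 (SE 0.25) in cKO and -0.48 (SE 0.25) in dcKO, neither past the test (edgeR adjusted p = 0.104 and 0.235). Without dcKO replicate 2 the dcKO value was -0.86, and with a correction of all genes for GC content it was 0.06.

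Phgdh and Psat1 encode the first enzymes of serine synthesis and were, per length of transcript, the most abundant of the 10 genes in Ctrl, at 148.9 and 163.2 CPM per kilobase of exon. Phgdh (chr3:98313170-98339990) was at 411.8, 377.1 and 321.7 CPM in Ctrl, 204.6 to 211.5 in cKO, and 114.3, 140.6 and 368.2 in dcKO. All 3 cKO embryos were below all controls and within a narrow range of each other, and dcKO replicate 3 stood in the control range. For Phgdh the log2 fold change was -0.84 (SE 0.37) in cKO and -0.83 (SE 0.37) in dcKO (edgeR adjusted p = 0.180 and 0.167), and with a GC correction it was -0.44 and -0.37. Psat1 (chr19:15904678-15947337) was at 653.2, 692.4 and 736.5 CPM in Ctrl, 493.5, 404.5 and 470.5 in cKO, and 392, 733.7 and 453.5 in dcKO. Its cKO embryos were again all below the controls, but here it was dcKO replicate 2 that stayed at the control level, as for Atf4. For Psat1 it was -0.61 (SE 0.23) in cKO and -0.40 (SE 0.23) in dcKO (edgeR adjusted p = 0.132 and 0.276), and -0.74 and -0.56 with the GC correction.

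Asns (chr6:7675169-7693254), which makes asparagine, was at 44.3, 50.04 and 59.9 CPM in Ctrl, 63.2, 63.1 and 67.2 in cKO, and 61.9, 46.8 and 48.4 in dcKO. The cKO embryos were all above the controls and all above the dcKO embryos, and the dcKO embryos overlapped the controls. Asns had a log2 fold change of 0.33 (SE 0.18) in cKO and 0.03 (SE 0.18) in dcKO (edgeR adjusted p = 0.275 and 0.933), and 0.17 and -0.18 with the GC correction. Slc7a11 (chr3:49892526-50443614), the cystine and glutamate exchanger, was at 4.57, 7.09 and 6.71 CPM in Ctrl, 8.83, 7.99 and 7.77 in cKO, and 8.52, 7.43 and 5.59 in dcKO. It too was higher in each cKO embryo than in each control, by a log2 fold change of 0.42 (SE 0.29, edgeR adjusted p = 0.383; 0.18 with the GC correction and 0.25 without Ctrl replicate 1), while dcKO gave 0.23 (SE 0.29, edgeR adjusted p = 0.615), or -0.27 with the GC correction. In Ctrl, Slc7a11 and Chac1 shared the lowest level per length, both at 0.440 CPM per kilobase.

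Ddit4 (chr10:59949669-59951834), an inhibitor of mTORC1 signalling and also a known p53 target, had the largest fold change of the 9 tested genes in both mutants. It was at 61.7, 60.4 and 45.8 CPM in Ctrl, 111.5, 145.8 and 115.7 in cKO, and 113.9, 57.4 and 190.5 in dcKO. All cKO embryos were above all controls, and in dcKO replicate 2 was in the control range while replicate 3 had the highest value of all 9 embryos. Its log2 fold change was 1.15 (SE 0.36) in cKO and 1.11 (SE 0.36) in dcKO, and edgeR did not call it (adjusted p = 0.0817 and 0.0834). With the GC correction edgeR called it in both, at 1.60 (adjusted p = 0.0141) and 1.71 (adjusted p = 0.0461). The cKO call was lost when the replicate number was added to that fit as a block (edgeR adjusted p = 0.0708). DESeq2, a second count test, gave 1.14 (adjusted p = 0.0222) in cKO and 1.07 (adjusted p = 0.0315) in dcKO and called it higher in both. In cKO the DESeq2 call was lost on leaving out any 1 of the 3 Ctrl or 3 cKO embryos (adjusted p 0.0793 to 0.142), and kept without any 1 dcKO embryo. In dcKO it was kept only without dcKO replicate 2 (log2 fold change 1.41, DESeq2 adjusted p = 1.12e-05), and without replicate 3 the fold change was 0.60 (DESeq2 adjusted p = 0.0620).

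Ppp1r15a (chr7:45522916-45526268), known as Gadd34, brings a phosphatase to eIF2 and ends the response. It was at 18.8, 18.8 and 17.1 CPM in Ctrl, 14.5, 12.3 and 12.9 in cKO, and 7.27, 5.52 and 17.3 in dcKO. The cKO embryos were all below the controls, and 2 dcKO embryos were lower still while replicate 3 was in the control range. For Ppp1r15a the log2 fold change was -0.46 (SE 0.38) in cKO and -0.86 (SE 0.39) in dcKO (edgeR adjusted p = 0.470 and 0.169), and -0.21 and -0.56 with the GC correction. Its exons overlap those of Tulp2 on the opposite strand in GENCODE M21, and the strand setting of the read counting is not given in the sources used here, so that its counts are uncertain.

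Ddit3, Trib3 and Chac1 act late in the response and are linked with cell death. Ddit3 (chr10:127290774-127296288), the transcription factor CHOP, was at 7.83, 4.76 and 5.59 CPM in Ctrl, 3.58, 5.32 and 3.28 in cKO, and 2.58, 2.50 and 11.4 in dcKO. Its exons overlap Mars and Gm4189 on the opposite strand, and a second identifier with the symbol Ddit3 had no read, so that its counts are uncertain as well. The groups overlapped, with the lowest and the highest values both in dcKO embryos. The log2 fold change of Ddit3 was -0.58 (SE 0.57) in cKO and -0.15 (SE 0.57) in dcKO (edgeR adjusted p = 0.545 and 0.876), and -0.78 and -0.27 with the GC correction. Without Ctrl replicate 1 the cKO value was -0.35. Trib3 (chr2:152337422-152344032), a pseudokinase that dampens Atf4 and Ddit3, was at 2.45, 2.88 and 2.09 CPM in Ctrl, 3.21, 2.71 and 1.47 in cKO, and 0.666, 0.690 and 2.61 in dcKO. For Trib3 the log2 fold change was -0.00094 (SE 0.55) in cKO and -0.92 (SE 0.56) in dcKO (edgeR adjusted p = 0.9996 and 0.294), and 0.46 and -0.43 with the GC correction. Chac1 (chr2:119351229-119354381), which degrades glutathione, had 10 to 45 reads per embryo, or 0.278 to 1.67 CPM. Its highest values were in cKO replicate 2 and dcKO replicate 3, and at this depth no difference between the groups was detectable (log2 fold change 0.27, SE 0.91, in cKO and 0.01, SE 0.92, in dcKO, edgeR without the read filter, adjusted p = 0.932 and 1).

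**Figure D1:**
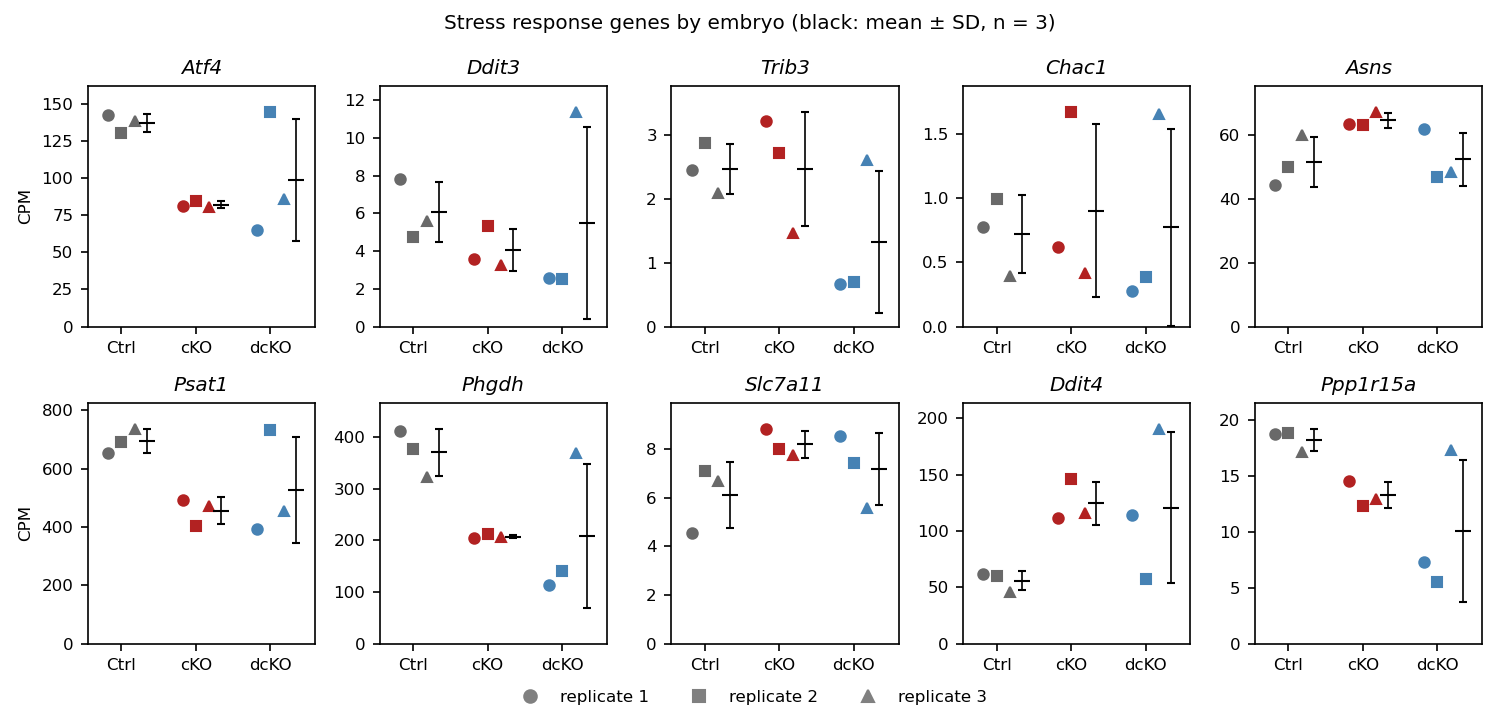
CPM (vertical axes, each from 0) of the 10 genes in the 3 Ctrl, 3 cKO and 3 dcKO embryos, with a symbol for each replicate number and black bars for the mean ± SD (n = 3). The cKO embryos of Atf4 (80.3 to 84.7 CPM) and Phgdh (204.6 to 211.5 CPM) lie close together and below the controls, whereas the dcKO embryos are spread out.

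Counted over the 9 tested genes in cKO against Ctrl, 3 were higher in every cKO embryo than in every control (Asns, Slc7a11 and Ddit4) and 4 were lower (Atf4, Psat1, Phgdh and Ppp1r15a). Of all genes tested, 29.2% were higher and 28% lower by the same measure. With 3 embryos a group, the exact two-sided permutation test of a single gene cannot give a p below 0.1, the value that these 7 genes reached. None of the 9 genes was called by edgeR, which called 0.0146% of all genes higher and 0% lower in this comparison. A call needed an adjusted p under 0.05 and more than a 2-fold difference, or 1 on the log2 scale. The deleted Cnot3 was not called either (log2 fold change -2.785, edgeR adjusted p = 0.0509), so that a gene left uncalled is not shown to be unchanged. At an unadjusted p under 0.05, edgeR had 4 of the 9 (Atf4, Psat1, Phgdh and Ddit4), beside 27.0% of all genes. DESeq2 called 1 of the 9 higher (Ddit4) and 0 lower, against 4.94% and 3.87% of all genes. The median log2 fold change of the 9 genes was -0.46, beside 0.01 for all genes tested, and with the GC correction it was -0.21.

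In dcKO against Ctrl, none of the 9 genes had every embryo on 1 side of the controls, beside 15.6% of all genes higher and 11.2% lower. edgeR called 0% of all genes in either direction and none of the 9. The deleted Cnot3 and Trp53 were thus not called either (log2 fold change -2.11 and -2.27, edgeR adjusted p = 0.0529 and 0.0605). The smallest edgeR adjusted p of all genes was 0.0502. At an unadjusted p under 0.05 edgeR had 3 of the 9 (Phgdh, Ddit4 and Ppp1r15a), beside 29.2% of all genes. DESeq2 called Ddit4 higher and none of the 9 lower, against 4.66% and 3.79% of all genes. The median of the 9 genes was -0.40 (-0.27 with the GC correction), and that of all genes tested was 0.11, a shift that a correction for GC content reduced to -0.018. Both mutants were compared with the same 3 controls.

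**Figure D2:**
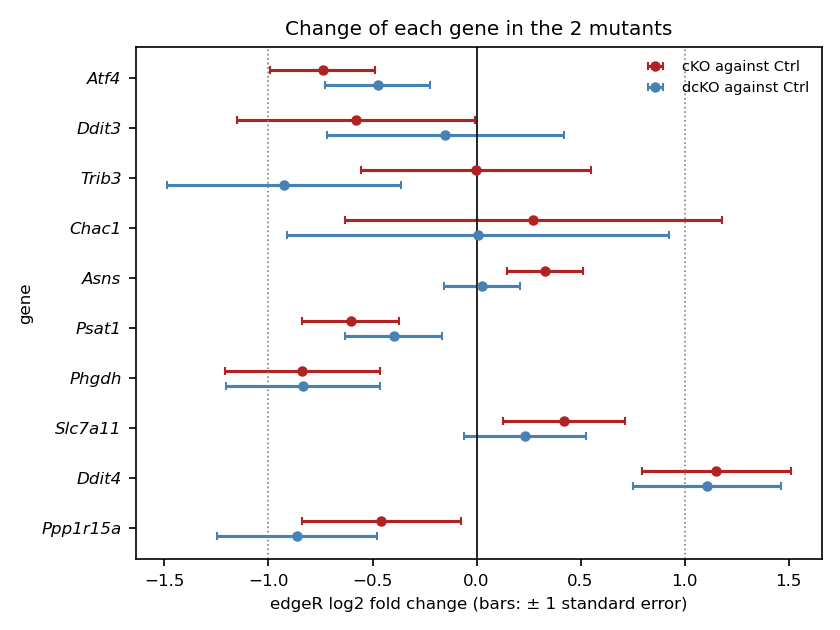
edgeR log2 fold change (horizontal axis) of each of the 10 genes in cKO and dcKO against Ctrl, with bars of ± 1 standard error and dotted lines at -1 and 1. Ddit4 is above 1 in both mutants (1.15 and 1.11), and Chac1, fitted without the read filter, has the widest bars.

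The 3 dcKO embryos did not move together. Relative to the control mean, replicate 1 had a log2 ratio of -1.89 for Trib3, -1.70 for Phgdh, -1.32 for Ppp1r15a and -1.23 for Ddit3, and replicate 2 gave -1.84, -1.40, -1.72 and -1.27 for the same genes. Replicate 3 gave 0.08, -0.01, -0.07 and 0.91. For Atf4, Psat1 and Ddit4 it was instead replicate 2 that stood at the control mean, at 0.08, 0.08 and 0.04. Replicate 2 was also the dcKO embryo with the most Cnot3 and Trp53 RNA, and it had the lowest sum of the 6 placode and facial tissue markers in dcKO (2.12 CPM, against 22.6 and 24.4 in replicates 1 and 3, 2.12 to 2.78 in Ctrl and 14.9 to 23.0 in cKO). Its 5 intermediate progenitor markers summed to 674.7 CPM, against 337.3 and 398.3 in the other two dcKO embryos and 396.4 to 497 in Ctrl, and its 10 subpallium markers to 44.2 CPM, against 25.3 and 28.4 in those embryos and 23.5 to 29.4 in Ctrl. The part of the remaining targeted RNA and of these markers in the differences between dcKO embryos was not tested.

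Without dcKO replicate 3, edgeR called 4 of the 9 genes lower in dcKO against Ctrl: Trib3 (log2 fold change -1.86, adjusted p = 0.00711), Phgdh (-1.54, adjusted p = 0.000289), Ppp1r15a (-1.51, adjusted p = 0.000700) and Ddit3 (-1.25, adjusted p = 0.0186). DESeq2 called 4 lower as well, and over all genes the edgeR calls then rose to 1157 higher and 2088 lower. Without dcKO replicate 2, edgeR called Ddit4 higher in dcKO (log2 fold change 1.44, adjusted p = 0.00687) and none of the 9 lower, with 980 genes called higher and 350 lower. Without dcKO replicate 1 it called 0 genes of the whole table in either direction. With 1 embryo left out in turn, the dcKO fold change of Atf4 ranged from -0.86 to -0.25, that of Psat1 from -0.72 to -0.23, that of Phgdh from -1.54 to -0.54, that of Trib3 from -1.86 to -0.60 and that of Ppp1r15a from -1.51 to -0.57. For Psat1 these ends were without replicate 2 and without replicate 1.

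**Figure D3:**
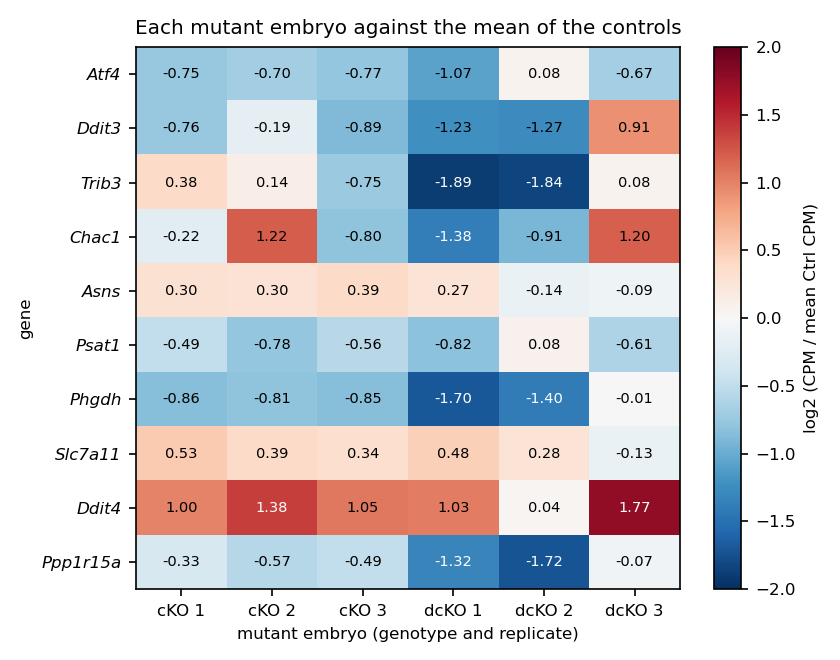
log2 ratio of the CPM of each mutant embryo (columns) to the mean of the 3 Ctrl embryos, for the 10 genes (rows), with blue for lower, red for higher and the value in each field. The 3 cKO columns are alike for Atf4, Psat1, Phgdh and Ddit4, and the dcKO columns differ, as for Ddit3 with -1.23, -1.27 and 0.91.

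The comparison of dcKO with cKO asks what differs once Trp53 is deleted too. Of the 9 genes, Asns had every dcKO embryo below every cKO embryo (log2 fold change -0.30, SE 0.18, edgeR adjusted p = 0.889), beside 3.63% of all genes lower and 2.62% higher by this measure. edgeR called none of the 9, with 0% of all genes called higher and 0.0146% lower. DESeq2 also called none of the 9, with 0.0292% higher and 0.351% lower, and at an unadjusted p under 0.05 edgeR had 0 of the 9 beside 4.42% of all genes. For Ddit4 the log2 difference was -0.05 (SE 0.35). Without dcKO replicate 3, edgeR called Trib3 (-1.86, adjusted p = 0.0196) and Ppp1r15a (-1.05, adjusted p = 0.0156) lower in dcKO than in cKO, among 883 genes called lower and 353 higher.

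Some embryos share a number in their sample names, whose meaning is not given in the sources used here. There were 2 such pairs of a Ctrl and a cKO embryo, with cKO replicates 2 and 3, and 1 pair of a Ctrl and a dcKO embryo, with replicate 3 of each. Within the pairs of cKO replicates 2 and 3, the log2 ratio of cKO to Ctrl was -0.75 and -0.70 for Atf4, -0.96 and -0.87 for Phgdh, -0.69 and -0.56 for Psat1, and 1.24 and 0.94 for Ddit4. For these 4 genes all cKO embryos lay on 1 side of all controls, so that the direction within pairs was fixed and adds nothing. Ddit3, whose groups overlapped, gave -0.56 and -0.54. For Trib3 the same pairs gave 0.15 and -0.97 and for Chac1 1.11 and -1.26. Within the pair of Ctrl and dcKO embryos the ratio of dcKO to Ctrl was 2.06 for Ddit4 and 1.03 for Ddit3, and -0.69 for Atf4.

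Among the other genes of the pathway, the 4 kinases that phosphorylate eIF2 were all tested. Eif2ak2, the sensor of double-stranded RNA known as PKR, was at 13.2 to 15.2 CPM in Ctrl, 22.7 to 33.5 in cKO and 19.8 to 41.9 in dcKO, without overlap with the controls in either mutant. Of all genes, 29.2% in cKO and 15.6% in dcKO were higher without overlap. DESeq2 called Eif2ak2 higher in both (edgeR log2 fold change 1.06 and 1.04, DESeq2 adjusted p = 0.0126 and 0.0159), beside 4.94% and 4.66% of all genes. Eif2ak4, the amino acid sensor GCN2, had edgeR log2 fold changes of 0.79 and 0.63, under the fold threshold, and Eif2ak3, the endoplasmic reticulum sensor PERK, 0.39 and 0.27. The remaining kinase, Eif2ak1, had 0.13 and -0.06, and both mutants overlapped the controls. None of the 12 tested genes of eIF2, its exchange factor eIF2B and its phosphatase was called by either tool with all embryos. DESeq2 called 3.79% to 4.94% of all genes in each direction against Ctrl. The median of the 12 genes was 0.12 in cKO and 0.20 in dcKO, or 0.00091 and 0.074 with the GC correction. In dcKO this median was 0.11 without replicate 2. The smallest edgeR p in cKO belonged to Eif2b3 and Eif2b1, subunits of eIF2B, with log2 fold changes of 0.50 and 0.37, and to the phosphatase subunit Ppp1ca with -0.32.

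Of 7 further transcription factors of the response, 5 were tested. Atf5, a factor related to Atf4, was at 22.2 to 32.8 CPM in Ctrl, 13.4 to 14.7 in cKO and 9.27 to 16.0 in dcKO. DESeq2 called Atf5 lower in both mutants, where it called 3.87% and 3.79% of all genes lower (DESeq2 adjusted p = 0.00492 and 0.00277). The other 4, Atf3, Cebpg, Jdp2 and Nfe2l2, were not called by either tool with all embryos.

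Amino acid transporters, of which 8 of 9 were tested, all had a log2 fold change below 0 in cKO and in dcKO (7 of 8 in dcKO with the GC correction), with medians of -0.55 and -0.68. Every cKO embryo was below every control for all 8, and every dcKO embryo for 6, beside 28% and 11.2% of all genes. DESeq2 called 1 lower in cKO and 2 in dcKO, beside 3.87% and 3.79% of all genes, and edgeR called 0. Slc7a1, a carrier of arginine and lysine, was at 89.5 to 93.2 CPM in Ctrl, 34.6 to 36.9 in cKO and 26.2 to 69.8 in dcKO, and DESeq2 called it in both (DESeq2 adjusted p = 0.00143 and 0.0183). Slc7a5, a carrier of large neutral amino acids, was at 137.0 to 154.5 CPM in Ctrl, 68.5 to 88.5 in cKO and 44.4 to 72.7 in dcKO. DESeq2 called Slc7a5 in dcKO (edgeR log2 fold change -1.22, DESeq2 adjusted p = 4.86e-05), and in cKO its edgeR log2 fold change of -0.89 was under the fold threshold. Its partner chain Slc3a2 had values of -0.54 and -0.76. Slc7a11, itself an amino acid transporter, was described above and is not in this list.

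Of 14 enzymes of serine, glycine, proline and transsulfuration metabolism, 12 had a log2 fold change below 0 in each mutant, with medians of -0.31 and -0.38. Neither tool called any of them with all embryos, where DESeq2 called 3.79% to 4.94% of all genes in each direction. Every cKO embryo was below every control for 8 of the 14 and above for 1, beside 28% and 29.2% of all genes, and every dcKO embryo was below for 5, beside 11.2%. The dcKO median was -0.16 without dcKO replicate 2 and -0.59 without replicate 3, where every remaining dcKO embryo was below for 10. The share of all genes was not counted with an embryo left out, and the 11.2% does not apply to these 10. Those with the smallest edgeR p in cKO were Mthfd2, of mitochondrial folate metabolism, at -0.65 in cKO and -0.78 in dcKO, Pycr1, of proline synthesis, at -0.62 and -0.91, and Mthfd1l at 0.58 and 0.34. Of 13 genes of aminoacyl-tRNA synthetases and the tRNA exporter Xpot, none was called with all embryos, beside the same 3.79% to 4.94%. Their medians were -0.06 and -0.01, with 7 of 13 below 0 in each mutant. With the GC correction the dcKO median was -0.18, with 12 of 13 below 0, and 11 of 13 were below 0 in cKO. Mars, which overlaps Ddit3, had a log2 fold change of -0.56 in cKO and -0.51 in dcKO, Yars -0.30 and -0.46, and Aars -0.41 and -0.66.

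A last list held 16 genes linked with Atf4 and related stress pathways, and 12 were tested. DESeq2 called 4 of them higher in cKO and 3 in dcKO, beside 4.94% and 4.66% of all genes, and edgeR 0 in both. Ndrg1, a stress-induced gene also known to respond to hypoxia, had an edgeR log2 fold change of 2.54 (DESeq2 adjusted p = 0.000198) in cKO and 1.94 (DESeq2 adjusted p = 0.00515) in dcKO. Vldlr, a reelin receptor, had 1.54 and 1.64 (DESeq2 adjusted p = 0.00037 and 0.000169), and Stc2, a secreted glycoprotein, was called in dcKO at 1.20 (DESeq2 adjusted p = 0.0243). Sesn2 and Tnfrsf10b are known p53 targets as well. Sesn2, which restrains mTORC1, was at 10.6 to 14.7 CPM in Ctrl, 30.01 to 63.4 in cKO and 4.90 to 19.1 in dcKO, with an edgeR log2 fold change of 1.77 in cKO (DESeq2 adjusted p = 0.00502) and -2.16 in dcKO against cKO (DESeq2 adjusted p = 0.00356). Tnfrsf10b, a death receptor, had 1.36 in cKO (DESeq2 adjusted p = 0.000311) and -1.12 in dcKO against cKO (DESeq2 adjusted p = 0.0277).

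Of 18 genes of the Atf6 and Xbp1 arms of the unfolded protein response, none was called by either tool with all embryos. Of all genes, DESeq2 called 3.79% to 4.94% in each direction against Ctrl, and edgeR at most 0.0146%. The medians of the 18 genes were 0.02 in cKO and 0.0043 in dcKO, or -0.03 and -0.054 with the GC correction. Without dcKO replicate 2 the dcKO median was -0.091, and without replicate 3 it was 0.19. Ern1, the sensor that splices Xbp1 mRNA, had log2 fold changes of -0.88 and -0.78, the chaperone Dnajb9 0.51 and 0.82, and Pdia4, a disulfide isomerase, 0.28 and 0.28. Of the 17 tested p53 target genes, DESeq2 called 7 higher in cKO (Cdkn1a, Ccng1, Eda2r, Trp53inp1, Plk2, Phlda3 and Perp), beside 4.94% of all genes, and edgeR called Eda2r, at a log2 fold change of 4.22 (edgeR adjusted p = 0.0232). In dcKO DESeq2 called 3 of them lower (Phlda3, Aen and Pidd1), beside 3.79% of all genes, and none higher. Without dcKO replicate 3 it called 4 of them lower and 2 higher, beside 2174 and 1123 of the 13680 genes.

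Calls over all genes also changed without an embryo: DESeq2 called 2174 genes lower in dcKO without replicate 3 and 604 without replicate 2, in place of 519. It called 1123 higher without replicate 3 and 1036 without replicate 2, in place of 638. Without dcKO replicate 3 the transporters had 2 lower by DESeq2 in dcKO, and the serine, glycine, proline and transsulfuration enzymes had 4 lower in place of 0. Without dcKO replicate 2 these lists had 2 and 1 lower. The unfolded protein response genes had 1 higher and 1 lower without replicate 3, and 0 and 1 without replicate 2. Of the transcription factors, 2 were lower without replicate 3 (Atf5 and Jdp2) and 1 without replicate 2 (Atf5). The genes of eIF2, eIF2B and the phosphatase had 1 lower without either embryo, Eif2b2 without replicate 3 and Eif2s3x without replicate 2. Of the synthetases, Aars was lower without replicate 3 and none was called without replicate 2. The list linked with Atf4 and related pathways had 2 higher (Ndrg1 and Vldlr) and 2 lower (Sesn2 and Eif4ebp1) without replicate 3, and 3 higher (Ndrg1, Stc2 and Vldlr) without replicate 2. edgeR gave the same counts as DESeq2 for these lists in both settings.

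**Figure D4:**
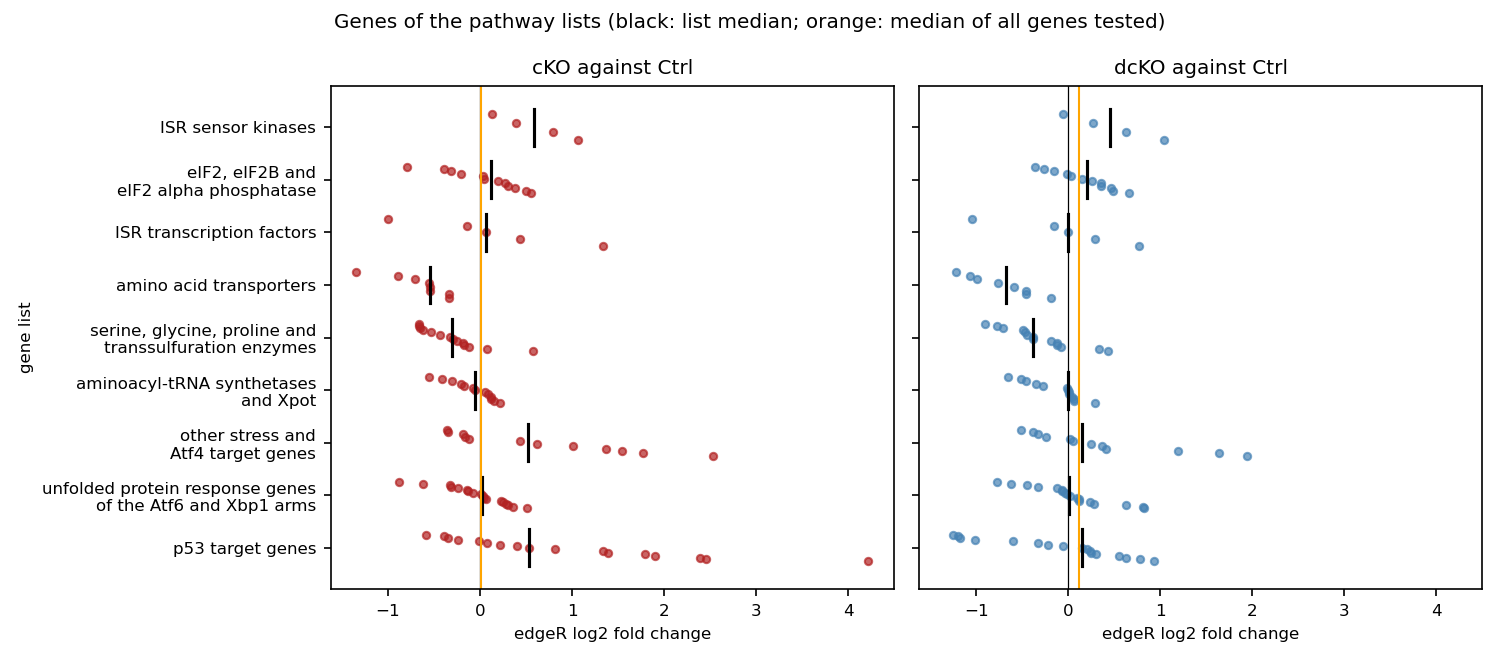
edgeR log2 fold change (horizontal axis) of every tested gene of the 9 pathway lists (rows), in cKO against Ctrl and in dcKO against Ctrl, with a black mark at the median of each list and an orange line at the median of all genes tested (0.01 and 0.11). All 8 amino acid transporters lie below 0 in both panels (7 of 8 in dcKO with the GC correction), and the Atf6 and Xbp1 list has its median near 0.

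Markers of other tissues moved with genotype too. The 8 markers of cortical hem and choroid plexus summed to 80.4 to 106.4 CPM in Ctrl, 110.5 to 344.9 in cKO and 149.8 to 372.1 in dcKO, with Ttr the gene at 0 reads in Ctrl. The 8 meningeal fibroblast markers summed to 805.4 to 878.0, 472.2 to 724.5 and 344.4 to 526.3 CPM, and the 8 microglia and macrophage markers to 47.2 to 56.7, 65.9 to 126.9 and 23.0 to 42.6 CPM. In dcKO the 9 markers of endothelial cells and pericytes summed to 175.3 to 191.7 CPM, against 271.3 to 352.4 in Ctrl, and the 8 red blood cell markers to 4941 to 6775, against 7687 to 11460. Markers of Cajal-Retzius cells, 5 genes, summed to 70.3 to 103.1 CPM in dcKO, against 110.2 to 140 in Ctrl and 104.3 to 166.8 in cKO. The 8 markers of early neurons summed to 551 CPM in dcKO replicate 1, against 1204 and 1223 in the other two dcKO embryos and 1094 to 1525 in Ctrl. In cKO replicates 1 to 3 their sums were 1112, 1199 and 751.6 CPM. The part of these cells and tissues in the differences of the stress response genes was not tested.

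The average of the 9 tested genes, as the mean of their log2 CPM scaled to unit variance over the 9 embryos, was 0.13 to 0.33 in Ctrl, -0.07 to 0.18 in cKO, and -0.70, -0.59 and 0.26 in dcKO. It combines genes of opposite sign, such as Psat1 below and Ddit4 above the controls in every cKO embryo. The genes most like this average over the 9 embryos were Myl6 (Pearson's r = 0.988), Cttn (0.985), Smarcd1 (0.976), Jup (0.976) and Gm2606 (0.974), chosen as the highest of all other tested genes. The points share the embryos and include 3 genotypes.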

How the data were processed

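Cortical RNA of single E12.5 embryos was sequenced from stranded poly(A) libraries. According to the study's methods, reads were trimmed with Cutadapt, aligned to mm39 with STAR and assigned to genes with featureCounts. The authors deposited raw counts per gene, without normalization or filter, and 30138 genes had no read. Samples were grouped by their labels. CPM used TMM factors, and the SE of an edgeR fold change was derived from it and its F statistic.

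Counts of genes passing a filter of over 10 reads per embryo were tested with edgeR 4.0.16 (quasi-likelihood, TMM, one model of 9 embryos) in R 4.3.3, which was tested on simulated counts. DESeq2 1.42.0 and limma 3.58.1 were run as alternatives. Adjusted p-values are Benjamini-Hochberg over all genes tested. Coordinates, exon lengths and GC content are from GENCODE M21 (GRCm38), matched by identifier for 52081 genes, since no mm39 annotation was used here. Summaries used Python 3.11.15, pandas 2.3.3 and SciPy 1.17.1.

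The members and gene lists were chosen with earlier results of these data known. Named genes are all members, list genes called in any comparison by edgeR or DESeq2, otherwise the 3 of a list with the smallest edgeR p in cKO, the targeted genes, and the 5 genes most like the members' average. Further kinases, transcription factors and Slc3a2 were named after their values were seen. Alternatives were RLE factors, no filter, only the 2 groups compared, each embryo left out, a replicate block and a GC correction. At least 10 reads per embryo, DESeq2 with embryos left out or with the block, and list counts without dcKO replicate 2 or 3, were added after seeing the data. Same-numbered embryos deviated with a mean r of -0.169 (1 of 9 pairs over 0.1), so the replicate numbers did not pair them.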

Additional observations from a re-analysis of the deposited data

How the results depend on the processing

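edgeR's counts of called genes over the whole table changed with the setting. In cKO against Ctrl, the 2 higher and 0 lower became 676 and 530 with DESeq2, 957 and 911 with limma voom, 386 and 427 with no filter, 945 and 813 with only the 2 groups compared, 401 and 213 with the GC correction, and 0 higher with the replicate block. In dcKO against Ctrl, 0 and 0 became 638 and 519 with DESeq2, 1491 and 2177 with limma voom, 313 and 379 with no filter, 1 and 1 with the GC correction, and 173 and 49 with at least 10 reads. In dcKO against cKO, 0 higher and 2 lower became 4 and 48 with DESeq2, 3 and 24 with limma voom and 1 and 7 with no filter. The lower count was 10 with the GC correction, and 0 with only the 2 groups compared or with the replicate block. Under the replicate block DESeq2's 4 and 48 became 1 and 23. The cause of these differences was not tested. With each embryo left out, edgeR called 0 to 769 genes higher and 0 to 751 lower in cKO, 0 to 1157 and 0 to 2088 in dcKO, and 0 to 353 and 0 to 883 in dcKO against cKO. DESeq2 called 354 to 870 and 155 to 824, 224 to 1123 and 139 to 2174, and 1 to 409 and 15 to 1026.

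Of the 9 tested stress response genes, 1 (Ddit4) was called higher in cKO by DESeq2, limma voom, edgeR with no filter, with only the 2 groups compared and with the GC correction, and in dcKO by DESeq2 and the GC correction. DESeq2 with the replicate block called 0 of the 9 in both, at an adjusted p of 0.0506 and 0.0827 for Ddit4. Nor did edgeR with the GC correction and the block call Ddit4 in cKO (adjusted p = 0.0708). limma voom called 3 lower in dcKO (Trib3, Phgdh and Ppp1r15a). With each embryo left out, edgeR and DESeq2 called 0 to 1 higher in cKO and in dcKO, 0 to 4 lower in dcKO and 0 to 2 lower in dcKO against cKO. Over all 10 genes, with the untested Chac1 included, those with no overlap between the groups then numbered 3 higher and 4 to 5 lower in cKO, 0 to 1 and 0 to 5 in dcKO, and 0 to 1 and 1 to 6 in dcKO against cKO. Without dcKO replicate 3, 4 of the 9 tested genes were lower in every dcKO embryo than in every control, and Chac1 was the fifth. The share of all genes was not counted with an embryo left out. Groups of 2 and 3 embryos separate more readily than 3 and 3, so that these counts are no result about the stress response genes.

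Over the fold changes of the 10 genes, leaving aside DESeq2 with an embryo left out and, but for Chac1, DESeq2 with at least 10 reads, 458 values kept their direction and their side of the threshold, 19 newly passed it and 42 changed sign. In dcKO against Ctrl, Asns was at -0.0011 with RLE factors, -0.0012 with DESeq2, -0.067 with no filter, -0.019 with only the 2 groups compared, -0.18 with the GC correction and -0.18 with the block added, and -0.11 to 0.15 with an embryo left out. Slc7a11 was at -0.27 with the GC correction, with and without the block, and Atf4 at 0.064 with the GC correction. Ddit3 ranged from -1.25 to 0.20 with an embryo left out. In cKO, Trib3 was at 0.0020 with only the 2 groups compared, 0.022 with the block, 0.46 with the GC correction, 0.45 with both, 0.0083 with DESeq2 and the block, and -0.24 to 0.25 with an embryo left out. In dcKO against cKO, limma voom gave -0.20 for Atf4, -0.42 for Ddit3, -0.70 for Phgdh and -0.16 for Psat1. Phgdh was at -0.0203 with RLE factors and -0.0201 with DESeq2, -0.025 with no filter, -0.12 with the block, -0.14 with DESeq2 and the block, and -0.70 to 0.30 with an embryo left out. Ddit4 was at 0.11 with the GC correction, 0.082 with the block added and -0.54 to 0.29 with an embryo left out. With an embryo left out, Atf4 ranged from -0.12 to 0.49, Ddit3 from -0.67 to 0.77 and Psat1 from -0.11 to 0.38. Chac1 had 10 to 45 reads per embryo, and each group had 3 embryos.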
